A study of Bos taurus with 14 samples.

Results

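Feeding linseed to dairy cows around calving was compared here with feeding a concentrate without it, in the older cows of the herd sample. These were the cows of the 4 blocks in which both members of the pair carried a parity label of 3 or more, which gave 8 of the 14 cows and 4 of the 7 blocks. The study asked how linseed in the transition period affects mammary gland tissue of Holstein-Friesian cows, with 1 Affymetrix array per cow. In each block, 1 cow was fed Omega, a basal diet with a concentrate that included linseed, and 1 was fed Control, the same plan with a concentrate free of linseed. Both diets ran from 3 weeks before the expected calving date to 6 weeks after calving. The 4 Omega and the 4 Control cows therefore shared breed, tissue and feeding period, and the stated allocation within a block was random. No source used here states when in this period the tissue was sampled.

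The pairs were not exact in every trait. In blocks 303, 305, 307 and 308, parity was 4, 4, 3 and 4 in Omega cows, against 6, 3, 4 and 6 in Control cows. Parity averaged 3.75 ± 0.5 (SD, n = 4) in the Omega group and 4.75 ± 1.5 (SD, n = 4) in the Control group. The expected calving days of the 2 cows lay 48, 21, 29 and 14 days apart in these blocks. Milk of the first 100 days of the previous lactation had a mean of 4397 and an SD of 519 over the 4 Omega cows, and a mean of 4352 and an SD of 525 over the 4 Control cows, in a unit that the labels do not give. Diet differences and parity differences within these 4 pairs cannot be fully told apart. The parity labels were used as given, and the design text counts parities in another way.

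In lactation, mammary epithelial cells take fatty acids from blood through lipoprotein lipase and fatty acid transporters, and they also make shorter ones from acetate. Both kinds are desaturated, built into triacylglycerol and secreted as droplets wrapped in cell membrane, together with casein micelles and lactose. Linseed is rich in alpha-linolenic acid, a polyunsaturated fatty acid, and such acids are known to act on lipid genes through the SREBP and PPAR transcription factors. Milk protein output also needs many ribosomes, which are assembled in the nucleolus from ribosomal RNA, ribosomal proteins and a large set of assembly factors.

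All values are deposited log2 intensities, and every difference is Omega minus Control on this log2 scale, as the mean of the 4 pairs. Where 4 values are given for a diet, they belong to blocks 303, 305, 307 and 308 in this order. The 8 arrays had medians between 5.7 and 5.76. Transcripts of milk proteins marked the tissue as lactating gland in every cow. The alpha-lactalbumin gene LALBA lay at 14.50 to 14.60 in Omega and 14.56 to 14.60 in Control cows, and the kappa-casein gene CSN3 at 14.64 to 14.73 in Omega and 14.63 to 14.70 in Control cows. KRT19, an epithelial keratin, lay at 11.21 to 11.44 in Omega and 10.96 to 11.42 in Control cows. The 2 Control arrays of the series that stand apart from the rest belong to blocks 302 and 304 and are not among these 8.

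No single gene passed the test in these cows, and the differences were mostly small. With limma, a linear model with a moderated variance, and the block as a fixed effect, 0 of 10740 probe sets (0%) passed an adjusted p of 0.05, the lowest adjusted value being 0.612. An unadjusted p below 0.05 was reached by 770 probe sets (7.17%), of which 323 were higher (3.01%) and 447 lower (4.16%) in Omega cows. Half-widths of the 95% interval had a median of 0.25 log2, which is 1.19-fold. Mean differences exceeded 0.5 log2 in 131 probe sets and 1 log2 in 13. With 4 pairs the smallest p of an exact sign-flip test, two-sided, rounds to 0.13, so the same sign in all pairs is a description. All genes named here as higher or lower are therefore differences in the mean that did not pass the adjusted test.

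The same sign in all 4 pairs was found in 1789 of 10740 probe sets (16.7%), with 868 higher (8.08%) and 921 lower (8.58%) in Omega cows. Among the 6749 probe sets with a gene symbol, from which all gene lists were drawn, 534 (7.91%) were higher and 613 (9.08%) lower in all pairs. In 164 probe sets (1.53%) every Omega cow lay above every Control cow, and in 224 (2.09%) every Omega cow lay below. These shares are the background for each gene group below. The direction also depended on signal level. In the dimmest decile of the probe sets the median difference was 0.04 and 3.82% were lower in all 4 pairs, while in the brightest decile it was -0.06 and 16.6% were lower in all pairs. Blocks 303 and 305 carried most of this slope, with medians of -0.12 and -0.10 in the brightest decile, against -0.02 in block 307 and -0.01 in block 308. After quantile normalization between arrays, the median differences of the deciles lay between -0.01 and 0.01, and 9.12% of the brightest decile was lower in all 4 pairs. Over all probe sets, 841 (7.83%) were then lower and 818 (7.62%) higher in all 4 pairs. Counts in both scalings are therefore given below for most groups of bright transcripts.

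**Figure D1:**
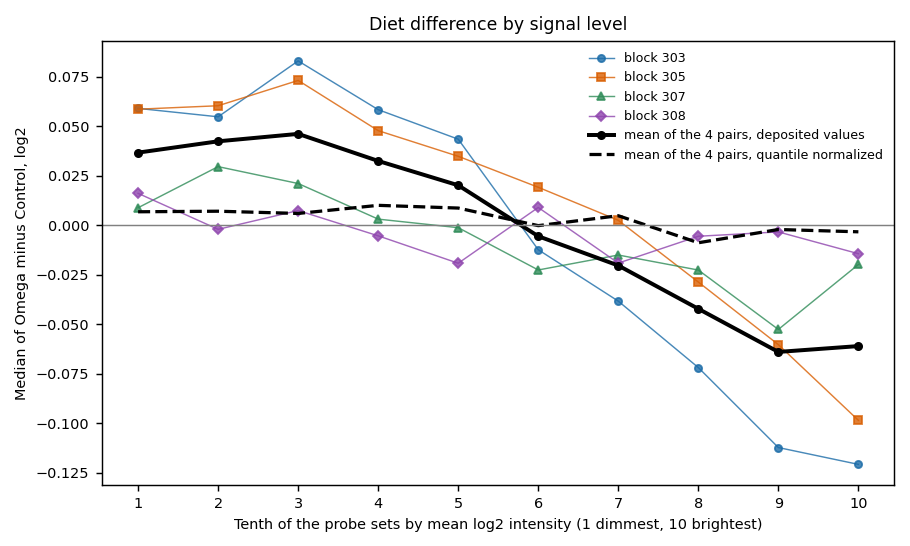
Median diet difference (Omega minus Control, log2) on the vertical axis for deciles of the probe sets ordered by mean log2 intensity on the horizontal axis. Coloured lines are the 4 blocks, the thick black line is the mean of the pairs in the deposited values and the dashed line the same after quantile normalization. The solid line runs downhill to -0.06 in the brightest decile and the dashed line stays near 0.

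Named genes were selected above the 30th percentile of signal, a log2 value of 4.59, which removed dim probe sets that leaned higher. With 1 sign in all pairs and an unadjusted p under 0.05, 120 of their probe sets were higher and 228 lower in Omega cows. Of all 7518 probe sets above that level, 507 were higher and 796 lower in all 4 pairs. After quantile normalization, 336 of all 10740 probe sets were higher and 372 lower at an unadjusted p under 0.05 in limma, against 323 and 447 before. Among the 120, the largest difference belonged to CHCHD10, a protein of the mitochondrial intermembrane space. It was at 7.31, 6.74, 7.87 and 7.61 in Omega cows, against 6.79, 6.11, 6.29 and 5.66 in Control cows. The groups overlapped by 1 value, since the Control cow of block 303 lay above the Omega cow of block 305. The mean difference was 1.17 log2 (95% interval 0.60 to 1.74), or 2.25-fold, with unadjusted p = 0.00175 and adjusted p = 0.612. CDH16, a cadherin of epithelial cells, was at 6.33, 5.74, 6.34 and 6.44 in Omega cows, against 5.53, 5.17, 5.46 and 5.33 in Control cows. Its groups did not overlap, and its difference was 0.84 (0.58 to 1.09), with unadjusted p = 0.000101 and adjusted p = 0.612.

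PTX3, a soluble pattern-recognition protein of innate immunity, was at 7.79, 5.84, 6.24 and 4.78 in Omega cows, against 6.88, 4.81, 4.69 and 4.74 in Control cows. The cows of block 303 had the highest value of each diet, and in block 308 the cows differed by 0.04. DEPP1, a target of FOXO transcription factors, differed by 0.72, and its highest value was 6.70 in the Omega cow of block 305. MLF1 was at 5.86, 5.78, 5.78 and 6.03 in Omega cows, against 5.19, 5.50, 4.86 and 5.18 in Control cows, and its groups did not overlap. POFUT1, which adds fucose to Notch receptors, was at 6.68 to 7.02 in Omega and 5.64 to 6.51 in Control cows. Its 2 probe sets had identical values and count as 1 measurement. ERGIC3, a protein of traffic between endoplasmic reticulum and Golgi, was at 6.96 to 7.87 in Omega and 6.60 to 6.86 in Control cows, and was higher by 0.60 on average. The remaining genes with large positive differences were PLAC8B (0.84), RASL11B (0.71), TUBD1 (0.68), NT5C3A (0.62), STATH (0.57), CMTM7 (0.56) and RHPN2 (0.55), of which RASL11B is a small GTPase, TUBD1 a centriolar tubulin and NT5C3A a nucleotidase.

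The largest negative difference belonged to FBP2, a fructose bisphosphatase that works against glycolysis and is best known from muscle. It was at 4.83, 4.19, 3.91 and 4.42 in Omega cows, against 5.36, 5.87, 5.74 and 6.24 in Control cows. Every Omega cow lay below every Control cow. The difference was -1.47 log2 (-1.98 to -0.95), a ratio of 0.362, with unadjusted p = 0.00025 and adjusted p = 0.612. Without block 303 it was -1.78 with adjusted p = 0.0182 in limma, and without each of the other blocks no probe set passed. POMK, a kinase that acts on the sugar chain of dystroglycan, was at 4.92, 4.62, 4.97 and 4.41 in Omega cows, against 5.61, 5.17, 5.51 and 4.99 in Control cows, also with no overlap. Its difference was -0.59 (-0.79 to -0.40), with unadjusted p = 0.00018 and adjusted p = 0.612. FANCL, the ubiquitin ligase of the Fanconi anaemia repair pathway, was at 4.23 to 4.94 in Omega and 5.17 to 5.37 in Control cows. BREH1, annotated as a retinyl ester hydrolase, was at 5.03 to 5.71 in Omega and 5.89 to 6.45 in Control cows.

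Several of the other genes with large negative differences encode secreted or matrix proteins. A2M, a broad protease inhibitor of plasma, was at 9.11, 9.60, 8.95 and 9.02 in Omega cows, against 9.77, 10.21, 9.64 and 9.25 in Control cows. Its groups overlapped only through the Control cow of block 308, and the difference was -0.54 (-0.79 to -0.30), with unadjusted p = 0.00123. TFPI2, a serine protease inhibitor of the matrix, differed by -0.62, THBS4, a thrombospondin, by -0.62, and SPARCL1, a matrix glycoprotein, by -0.59. APOA1, the main protein of high-density lipoprotein, was at 4.74, 5.33, 5.52 and 4.47 in Omega cows, against 5.19, 6.28, 5.62 and 5.58 in Control cows, and its groups overlapped. ALAD, an enzyme of haem synthesis, was at 7.21 to 7.64 in Omega and 7.85 to 8.38 in Control cows, with no overlap. FHL1, a LIM-domain protein, differed by -0.51 and TMEM50B by -0.57. After quantile normalization FHL1 did not keep 1 sign in all 4 pairs.

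**Figure D2:**
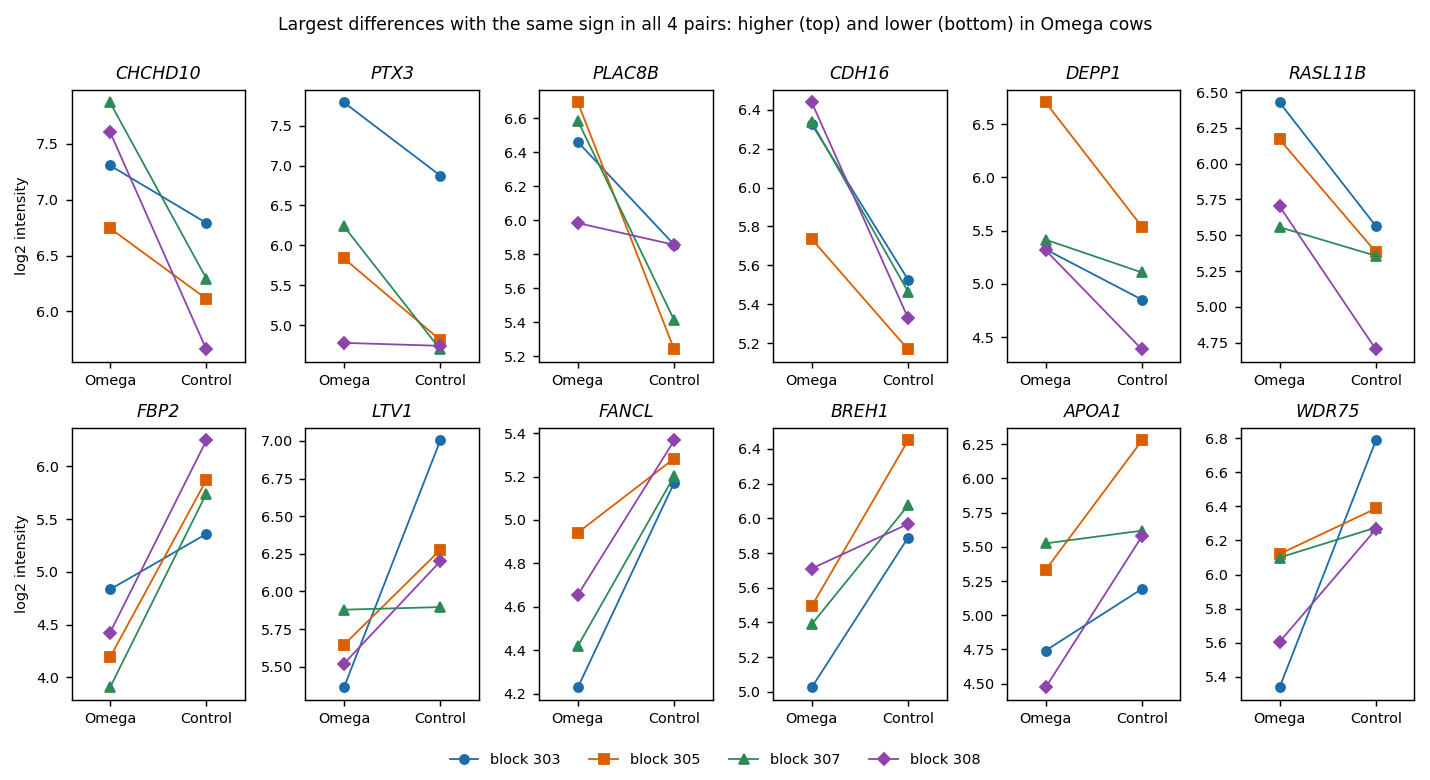
Log2 intensity of the 6 named genes with the largest positive differences (top row) and the 6 with the largest negative differences (bottom row) among those above the 30th percentile of signal with 1 sign in all 4 pairs and an unadjusted p under 0.05. Each line joins the Omega cow (left) and the Control cow (right) of a block, and each panel has its own vertical axis. FBP2 shows every Omega cow below every Control cow, and the PTX3 panel shows block 303 above the others.

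Genes of ribosome assembly were lower in Omega cows as a group. All 21 measured genes of the list of assembly factors and RNA polymerase I subunits had a negative mean difference, 12 of them were lower in all 4 pairs, and 8 had an unadjusted p under 0.05. Over all probe sets, 48.9% were lower on average and 8.58% were lower in all 4 pairs. The median of the list was -0.24 log2, with a range of -0.74 to -0.01, against 0.003 over all probe sets. After quantile normalization the median was -0.17, with 21 genes lower on average and 11 lower in all 4 pairs. None of the genes had an adjusted p under 0.05. The mean over the list was 5.89, 6.05, 6.09 and 5.99 in Omega cows, against 6.51, 6.28, 6.13 and 6.15 in Control cows. Every Omega cow lay below every Control cow, but the pair differences were uneven, at -0.62, -0.23, -0.04 and -0.16. Without block 303 the list median was -0.11, and without each of the others it lay between -0.26 and -0.31.

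LTV1, an assembly factor of the small ribosomal subunit, was at 5.36, 5.65, 5.88 and 5.52 in Omega cows, against 7.00, 6.28, 5.90 and 6.20 in Control cows. Its groups did not overlap, although the cows of block 307 differed by 0.02. The difference was -0.74 (-1.29 to -0.20), with unadjusted p = 0.0144 and adjusted p = 0.618. WDR75, a part of the machinery that first processes ribosomal RNA, was at 5.34, 6.12, 6.10 and 5.60 in Omega cows, against 6.79, 6.39, 6.28 and 6.27 in Control cows. Its groups did not overlap either, and the difference was -0.64 (-1.12 to -0.16), with unadjusted p = 0.0162. GAR1, a protein of the particles that modify ribosomal RNA, was at 6.03 to 6.07 in Omega and 6.16 to 6.86 in Control cows. MRTO4, a factor of the large subunit, was at 6.70 to 6.95 in Omega and 7.01 to 7.46 in Control cows. BRIX1, another large-subunit factor, was at 6.04, 6.03, 5.69 and 5.72 in Omega cows, against 6.70, 6.53, 5.87 and 5.85 in Control cows, with overlap. TSR1, a small-subunit factor, was dim, at 3.52 to 3.74 in Omega and 3.79 to 4.08 in Control cows, under the 30th percentile of signal. POLR1C, a shared subunit of RNA polymerases I and III, and NOLC1, a nucleolar scaffold, had mean differences of -0.41 and -0.34 that rested on blocks 303 and 305. In blocks 307 and 308 both genes were slightly higher in the Omega cow.

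**Figure D3:**
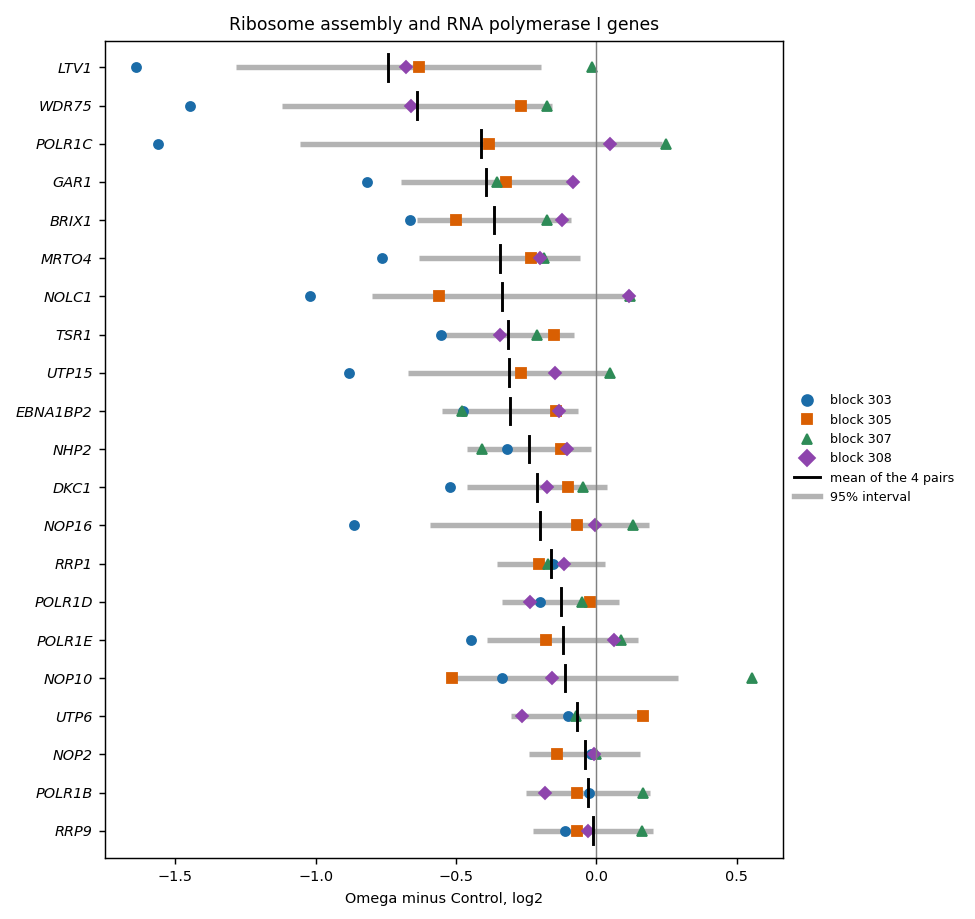
Diet difference (Omega minus Control, log2) of the 21 measured genes of ribosome assembly and RNA polymerase I, ordered by their mean. Symbols are the 4 blocks, black bars the mean of the pairs and grey bars the 95% interval of the limma fit. All 21 means lie left of 0, from -0.74 for LTV1 to -0.01, and block 303 holds the most negative value for many genes.

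The ribosomal proteins themselves were lower in Omega cows by smaller amounts. All 39 measured genes of the cytosolic ribosome had a negative mean difference, from -0.34 to -0.07 with a median of -0.15, 23 were lower in all 4 pairs and 5 had an unadjusted p under 0.05. These are among the brightest transcripts on the array, where 66.9% of all probe sets were lower on average and 16.6% were lower in all 4 pairs. After quantile normalization the median was -0.05, 34 of the 39 were lower on average and 6 were lower in all 4 pairs. The mean over the 39 genes was 12.50, 12.46, 12.57 and 12.42 in Omega cows, against 12.60, 12.80, 12.64 and 12.57 in Control cows. Only the Omega cow of block 307 reached the level of a Control cow, that of block 308, and without block 305 the list median was -0.10. RPL7A was at 12.15, 12.18, 12.15 and 12.16 in Omega cows, against 12.48, 12.74, 12.53 and 12.26 in Control cows, with no overlap. Its difference was -0.34 (-0.58 to -0.10), with unadjusted p = 0.0119 and adjusted p = 0.612, and it was -0.26 after quantile normalization. RPL18 differed by -0.28, RPL11 by -0.23 and RPL23 by -0.22. After quantile normalization RPL18 kept 1 sign in all 4 pairs, while RPL7A, RPL11 and RPL23 did not. Ribosomal protein genes have many processed pseudogenes, and probe sets cannot always separate such copies.

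Translation factors, splicing factors and mitochondrial ribosomal proteins leaned the same way on average. Of 25 translation factors, 20 were lower on average, 7 were lower in all 4 pairs, 0 were higher in all 4, and the median was -0.10. EEF2, the elongation factor that moves the ribosome along the message, was at 11.04, 10.99, 10.70 and 11.05 in Omega cows, against 11.14, 11.36, 11.42 and 11.30 in Control cows. Its groups did not overlap, and it differed by -0.36 (-0.63 to -0.08), with unadjusted p = 0.0184 and adjusted p = 0.631. After quantile normalization it differed by -0.27 and did not keep 1 sign in all 4 pairs. EIF3J, EIF3K and EIF6, which act at initiation or on subunit joining, differed by -0.25, -0.18 and -0.18. After quantile normalization the median of the 25 was -0.05, with 17 lower and 8 higher on average. In that scaling 2 were lower and 3 higher in all 4 pairs, against 7.83% and 7.62% of all probe sets.

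Of 32 splicing factors and RNA-binding proteins, 27 were lower on average, 9 in all 4 pairs and 6 at an unadjusted p under 0.05, with a median of -0.14. After quantile normalization 25 were lower on average and 7 in all 4 pairs, with a median of -0.09. SRSF6, a serine- and arginine-rich splicing factor, was at 8.59, 8.61, 8.74 and 8.77 in Omega cows, against 8.87, 9.09, 9.18 and 9.05 in Control cows. Its groups did not overlap, and it differed by -0.37 (-0.58 to -0.16), with unadjusted p = 0.00374 and adjusted p = 0.612. SRSF7 of the same family differed by -0.41, HNRNPD, which binds AU-rich messages, by -0.34, and U2AF1, which recognises the end of introns, by -0.34.

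In the mitochondrial ribosome 50 of 60 genes were lower on average, with a median of -0.09, yet 7 were lower and 3 higher in all 4 pairs, shares close to those of all probe sets. After quantile normalization 41 were lower on average, 7 were lower and 4 higher in all 4 pairs, and the median was -0.06. MRPS27 differed by -0.40, MRPS31 by -0.43 and MRPL17 by -0.28. The subunits of the respiratory chain and ATP synthase work in the same organelle. Of 63 genes, 36 were higher and 27 lower on average, 3 in all 4 pairs in each direction, with a median of 0.01. After quantile normalization 47 of the 63 were higher and 16 lower on average, 11 were higher and 2 lower in all 4 pairs, and the median was 0.08. NDUFB10, a complex I subunit, was at 9.30 to 9.44 in Omega and 9.51 to 9.71 in Control cows. NDUFA3 and NDUFV1, also of complex I, were 0.19 and 0.18 higher on average in Omega cows.

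Protein folding and breakdown were less even across pairs. In folding and secretion of the endoplasmic reticulum, 19 of 26 genes were lower on average and 7 in all 4 pairs, with a median of -0.09 and pair means of -0.35, -0.04, 0.04 and -0.05. This list lies in the brightest decile, and after quantile normalization 15 were lower and 11 higher on average, 2 were lower and 1 higher in all 4 pairs, and the median was -0.04. SRP19, a part of the particle that brings nascent secretory proteins to the membrane, was at 9.10 to 9.20 in Omega and 9.27 to 9.61 in Control cows, with no overlap. MANF, a secreted factor of the endoplasmic reticulum stress response, was at 8.95, 9.00, 8.88 and 8.55 in Omega cows, against 10.04, 9.58, 8.85 and 8.94 in Control cows. The wide gap for MANF lay in blocks 303 and 305. Of 30 proteasome genes, 26 were lower on average and 6 in all 4 pairs, with a median of -0.08 and pair means of -0.32, -0.03, -0.07 and 0.03. After quantile normalization 23 were lower on average, 3 were lower and 1 higher in all 4 pairs, and the median was -0.03. In that scaling the counts in all 4 pairs of both lists were close to the share of all probe sets. PSMD6, PSMA4, PSMD11 and PSMA1 differed by -0.25, -0.27, -0.23 and -0.25.

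Cytosolic heat shock proteins differed in sign between pairs. Their mean was -0.54 and -0.30 in blocks 303 and 305 but 0.35 in block 307 and -0.02 in block 308. HSPA1A, the inducible heat shock protein, was at 8.14, 8.02, 11.86 and 8.44 in Omega cows, against 10.00, 11.01, 8.38 and 8.39 in Control cows. The high values belonged to the Omega cow of block 307 and to the Control cows of blocks 303 and 305, and the difference of -0.33 had an interval of -2.50 to 1.83. Leaving out block 303 gave 0.18, leaving out block 305 gave 0.56 and leaving out block 307 gave -1.60. Of 26 genes, 22 were lower on average, 2 in all 4 pairs and 0 at an unadjusted p under 0.05. The list median was -0.15, without block 303 it was -0.02, and after quantile normalization it was -0.09 with 21 genes lower.

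Lipid genes as groups were near 0 in these cows. The list medians were -0.01 for 15 genes of cholesterol synthesis, 0.03 for 12 of fatty acid synthesis, -0.04 for 12 of desaturation and elongation, 0.002 for 16 of fatty acid uptake and binding, 0.01 for 24 of triacylglycerol synthesis and lipid droplets, and -0.01 for 10 of the milk fat globule membrane. The counts with 1 sign in all pairs were small and in both directions. Fatty acid uptake had 3 lower and 0 higher, triacylglycerol synthesis 2 lower and 3 higher, and cholesterol synthesis 0 lower and 1 higher. After quantile normalization the medians were 0.03 for cholesterol synthesis, 0.04 for fatty acid uptake and 0.04 for the milk fat globule membrane. Single genes within these lists differed by up to 0.6 log2, in opposite directions for related steps.

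**Figure D4:**
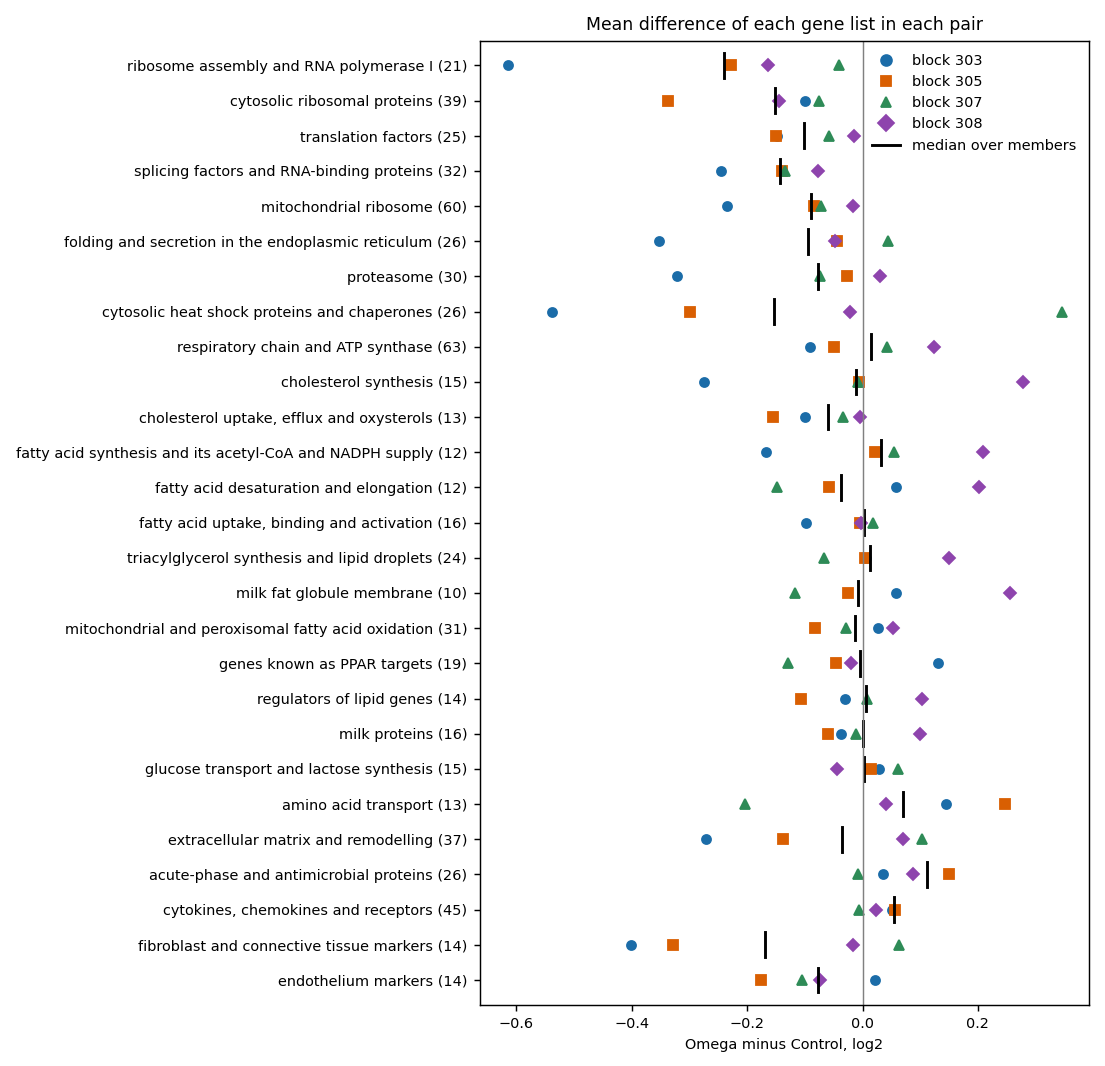
Mean diet difference (Omega minus Control, log2) of each described gene list in each of the 4 pairs, with the number of measured genes in brackets and the median over members as a black bar. The 5 lists of ribosome assembly, ribosomal proteins, translation, splicing and the mitochondrial ribosome lie left of 0 in all pairs. The list of cholesterol uptake, efflux and oxysterols also does, by small amounts, while the other lipid lists scatter around 0. After quantile normalization the mean of this cholesterol list in block 308 was 0.007.

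FABP5 and FABP4, which carry fatty acids inside cells, were lower in all 4 pairs. FABP5 was at 10.82, 10.37, 10.17 and 10.08 in Omega cows, against 11.20, 10.90, 10.82 and 10.51 in Control cows. The groups overlapped because levels differed between blocks, but each Omega cow lay below its partner by 0.38 to 0.65. The difference was -0.50 (-0.71 to -0.29), or a ratio of 0.708, with unadjusted p = 0.000781 and adjusted p = 0.612. FABP4, known from adipocytes and abundant in lactating bovine mammary tissue, was at 12.77, 12.72, 12.45 and 12.18 in Omega cows, against 12.99, 13.14, 12.79 and 12.69 in Control cows. It differed by -0.37 (-0.58 to -0.16), with unadjusted p = 0.00423, and by -0.25 after quantile normalization. FABP3, the form that dominates in milk-secreting cells, had a difference of 0.00 (-0.22 to 0.22), with 13.78 to 13.87 in Omega and 13.66 to 14.02 in Control cows.

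The routes of fatty acid entry did not share 1 direction. LPL, lipoprotein lipase, was at 12.95, 13.04, 12.76 and 12.79 in Omega cows, against 12.93, 12.97, 12.85 and 12.79 in Control cows, with an interval of -0.20 to 0.19 for the difference. CD36, a fatty acid translocase, was at 12.82 to 13.21 in Omega and 12.93 to 13.24 in Control cows. SLC27A6, a fatty acid transport protein, was at 7.62, 7.10, 7.71 and 7.54 in Omega cows, against 7.62, 6.89, 6.77 and 6.22 in Control cows. Its difference of 0.62 (0.11 to 1.12), with unadjusted p = 0.0235, came from blocks 307 and 308, and the cows of block 303 were level. LMF1, which matures lipases, was 0.31 higher on average in Omega cows.

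In synthesis and modification of fatty acids, ELOVL6, which elongates palmitic acid, was at 4.13, 4.37, 3.96 and 4.71 in Omega cows, against 3.83, 3.80, 3.65 and 3.89 in Control cows. Every Omega cow lay above every Control cow, at levels near or under the 30th percentile of signal. The difference was 0.50 (0.23 to 0.77), with unadjusted p = 0.00298 and adjusted p = 0.612. TECR, which completes the elongation cycle, was at 7.17 to 7.42 in Omega and 6.98 to 7.17 in Control cows, a difference of 0.26. THRSP, a regulator of lipogenesis, was 0.34 higher on average in Omega cows at a dim 3.61 to 4.72, against 3.51 to 3.99 in Control cows. SCD, the desaturase that makes oleic acid, was at 13.62, 13.53, 13.83 and 13.54 in Omega cows, against 13.86, 13.79, 13.87 and 13.54 in Control cows, a difference of -0.14 (-0.35 to 0.08). ACACA, which makes malonyl-CoA, differed by 0.13 (-0.09 to 0.36) and FADS2, the delta-6 desaturase that acts on alpha-linolenic acid, by 0.24 (-0.12 to 0.60). For these 3 genes the interval included 0.

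In triacylglycerol synthesis, GPAM, which starts the pathway, was at 12.52, 12.43, 12.54 and 12.23 in Omega cows, against 12.89, 12.71, 12.83 and 12.31 in Control cows. It was lower in all 4 pairs with overlapping groups, by -0.26 (-0.47 to -0.05), with unadjusted p = 0.0236. After quantile normalization it differed by -0.15 and did not keep 1 sign in all 4 pairs. AGPAT2, which acts on the next intermediate, was higher in all 4 pairs, by 0.25 (0.01 to 0.49). BSCL2, seipin, which shapes nascent lipid droplets, was at 7.46, 7.18, 7.26 and 7.56 in Omega cows, against 7.06, 6.84, 6.83 and 7.35 in Control cows, a difference of 0.34 (0.14 to 0.55) with unadjusted p = 0.0053. PLIN3, a droplet coat protein, was at 6.84, 6.44, 6.99 and 6.65 in Omega cows, against 7.15, 6.98, 7.34 and 6.83 in Control cows, a difference of -0.35 (-0.57 to -0.12) with unadjusted p = 0.00789. PLIN2, the main coat protein of milk droplets, differed by 0.02.

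At the milk fat globule membrane, MFGE8, lactadherin, was at 12.41, 11.50, 12.26 and 11.59 in Omega cows, against 11.65, 11.34, 11.87 and 11.32 in Control cows. It was higher in all 4 pairs with overlapping groups, by 0.39 (0.11 to 0.67), with unadjusted p = 0.0124. XDH, xanthine dehydrogenase, which joins the droplet to the membrane, was lower in all 4 pairs by -0.22 (-0.43 to -0.01), and by -0.07 after quantile normalization. BTN1A1, butyrophilin, its partner there, differed by -0.02 (-0.23 to 0.19). CIDEA, which enlarges droplets, was at 11.70, 11.41, 11.09 and 11.72 in Omega cows, against 11.98, 10.97, 11.82 and 9.48 in Control cows. Its mean difference of 0.42 came from the low Control cow of block 308, and without that block it was -0.19.

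Of cholesterol genes, FDFT1, squalene synthase, was at 6.63, 6.74, 6.53 and 7.04 in Omega cows, against 6.20, 6.42, 5.84 and 6.39 in Control cows. Every Omega cow lay above every Control cow, and the difference was 0.52 (0.29 to 0.76), or 1.44-fold, with unadjusted p = 0.00104 and adjusted p = 0.612. It was the only one of the 15 measured genes of its pathway with 1 sign in all pairs. SQLE, squalene epoxidase, differed by -0.20 and DHCR7, the last enzyme of one branch, by -0.26. LCAT, which esterifies plasma cholesterol, was at 4.43 to 4.65 in Omega and 4.79 to 4.91 in Control cows. NPC2, which moves cholesterol out of lysosomes, was higher in all 4 pairs by 0.24 (0.01 to 0.47).

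Among regulators of lipid genes, PPARA, the fatty acid receptor that drives oxidation, was at 3.54, 3.07, 3.39 and 3.50 in Omega cows, against 3.81, 3.60, 3.74 and 3.74 in Control cows. Its groups did not overlap, at levels under the 30th percentile of signal, and the difference was -0.35 (-0.56 to -0.13), with unadjusted p = 0.00614. PPARG, a regulator of adipocyte and mammary lipid genes, was at 5.99, 5.75, 6.03 and 6.01 in Omega cows, against 6.69, 6.81, 6.41 and 5.84 in Control cows. The Omega cow was lower in 3 pairs and higher in block 308, and the difference was -0.49 (-0.93 to -0.05), with unadjusted p = 0.0329. The list of adipocyte markers holds both FABP4 and PPARG, and 4 of its 10 measured genes lay above the 30th percentile of signal. Of the 10, 5 were higher and 5 lower, and the list mean was 5.41 to 5.49 in Omega and 5.41 to 5.59 in Control cows, with pair differences of -0.10, -0.18, 0.01 and 0.05. The part of adipocyte content in the differences of FABP4 and PPARG was not tested. PLIN1 differed by 0.09 and LEP, leptin, by 0.23. SREBF1, the main lipogenic transcription factor, differed by -0.03 (-0.29 to 0.23) and its inhibitor INSIG1 by -0.13 (-0.51 to 0.24). PPARGC1A, a coactivator of mitochondrial genes, was 0.43 higher on average, with the opposite sign in block 305.

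Genes known as PPAR targets showed no common direction on average, with 9 of 19 higher and 10 lower. In all 4 pairs 4 were lower and 1 higher, against 8.58% and 8.08% of all probe sets. After quantile normalization 3 were lower and 2 higher in all 4 pairs. CREB3L3 was at 5.37 to 5.87 in Omega and 5.12 to 5.28 in Control cows, with no overlap, and differed by 0.34 (0.05 to 0.63). In fatty acid oxidation 13 of 31 genes were higher and 18 lower on average, while 4 were higher and 2 lower in all 4 pairs. After quantile normalization 15 were higher and 16 lower on average. In that scaling 6 were higher and 2 lower in all 4 pairs, against 7.62% and 7.83% of all probe sets. SLC25A20, the carnitine carrier of mitochondria, was lower in all 4 pairs by -0.32 (-0.58 to -0.05), and CPT2, the enzyme that follows it, was higher in all 4 pairs by 0.19, at 7.42 to 7.65 in Omega and 7.23 to 7.40 in Control cows. PDK4, which restrains glucose oxidation, differed by -0.11 (-0.57 to 0.35).

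**Figure D5:**
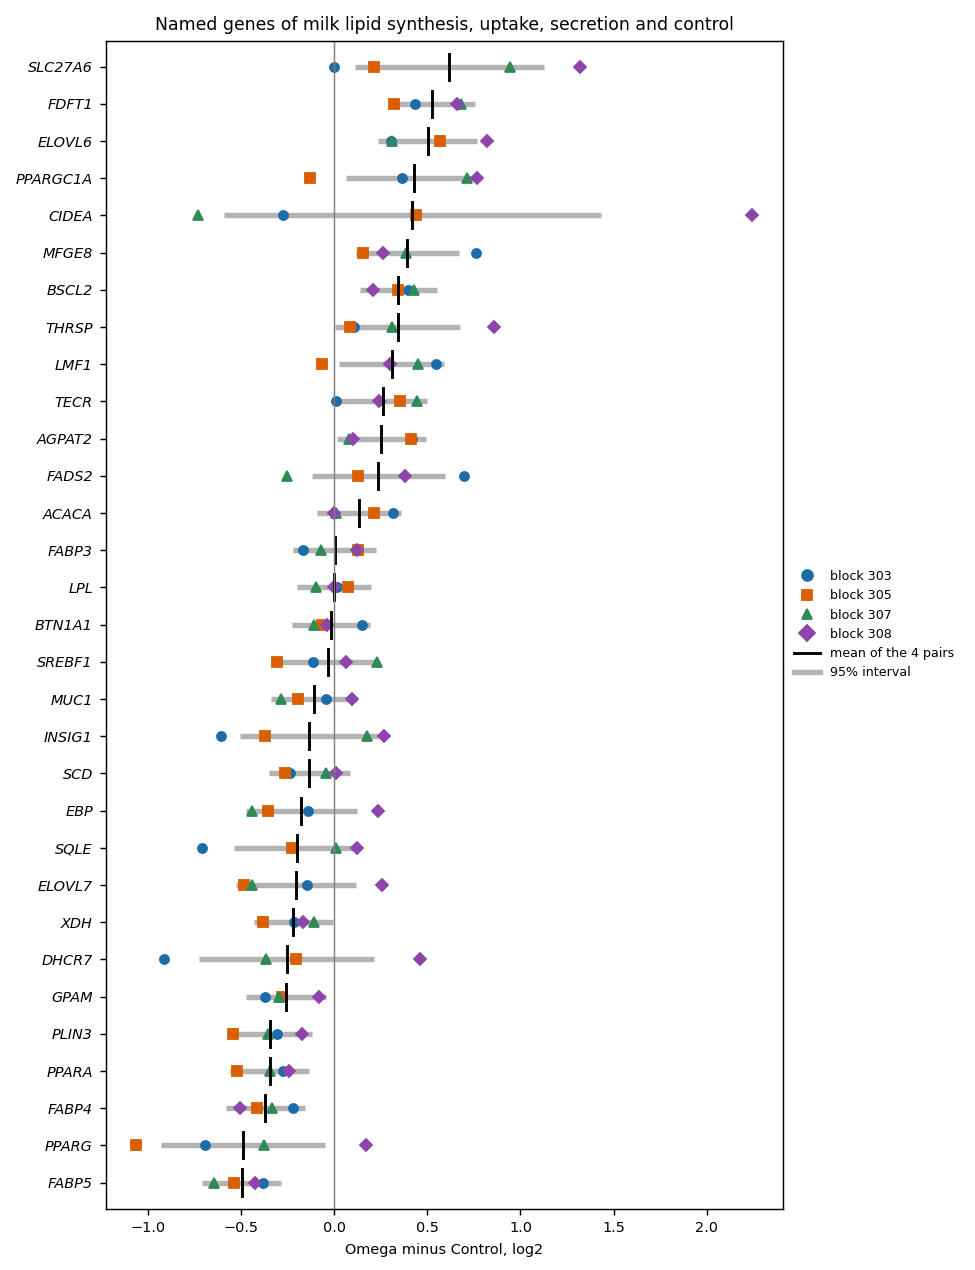
Diet difference (Omega minus Control, log2) of the named genes of lipid synthesis, uptake, secretion and control, ordered by their mean. Symbols are the 4 blocks, black bars the mean of the pairs and grey bars the 95% interval of the limma fit. FDFT1, ELOVL6, MFGE8 and BSCL2 lie right of 0 in all pairs, FABP5, FABP4, PPARA, PLIN3 and GPAM left of 0, and CIDEA rests on block 308.

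Milk protein genes differed little. Of 16 genes 8 were higher and 8 lower on average, with a median of 0.001, and after quantile normalization 6 were higher and 10 lower. CSN1S1, alpha-s1-casein, differed by -0.05 (-0.27 to 0.17), LALBA by -0.03 (-0.23 to 0.16) and CSN3 by 0.01 (-0.18 to 0.21). Values near the top of the array scale are compressed, so small differences there can be understated. LTF, lactoferrin, ranged widely, at 8.69, 11.16, 10.15 and 12.11 in Omega cows, against 11.18, 11.85, 10.67 and 10.61 in Control cows. Its difference of -0.55 had an interval of -1.80 to 0.71.

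Glucose entry showed 1 gene with separated groups. SLC5A1, a sodium-coupled glucose transporter, was at 5.19, 5.26, 5.37 and 5.24 in Omega cows, against 4.69, 4.95, 4.61 and 4.94 in Control cows. Every Omega cow lay above every Control cow, and the difference was 0.47 (0.21 to 0.72), or 1.38-fold, with unadjusted p = 0.00311 and adjusted p = 0.612. SLC2A1, the main facilitative glucose transporter of the gland, differed by -0.05 (-0.30 to 0.20), and the 15 genes of glucose transport and lactose synthesis had a median of 0.002. Of 13 amino acid transporters, 9 were higher on average and 2 in all 4 pairs. SLC1A1, a glutamate carrier, was at a dim 3.77 to 4.01 in Omega and 3.38 to 3.76 in Control cows.

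Stromal transcripts were lower in part. Of 14 markers of fibroblasts and connective tissue, 12 were lower on average, 1 was lower in all 4 pairs and 2 had an unadjusted p under 0.05, with a median of -0.17. The list mean was 7.62, 7.66, 7.88 and 7.64 in Omega cows, against 8.02, 7.98, 7.81 and 7.66 in Control cows. After quantile normalization the median was -0.15, with 12 lower on average. The pairs of blocks 303 and 305 differed by -0.40 and -0.33, and those of blocks 307 and 308 by 0.06 and -0.02. The median was -0.11 without block 303, and -0.27 and -0.32 without blocks 307 and 308. VIM, vimentin, was at 10.70, 10.63, 10.51 and 10.21 in Omega cows, against 11.01, 11.00, 10.77 and 10.36 in Control cows, a difference of -0.27 (-0.48 to -0.07) with unadjusted p = 0.0151. DCN, decorin, differed by -0.37 and was lower in 3 of 4 pairs. COL1A1, a fibrillar collagen, differed by 0.27 in the other direction. In pieces of tissue, fewer cells of a type and less RNA per cell cannot be told apart.

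In the extracellular matrix, 21 of 37 genes were lower on average and 7 in all 4 pairs, against 1 higher in all pairs. The list median was -0.04, and the pair means were -0.27, -0.14, 0.10 and 0.07, so the sign differed between pairs. After quantile normalization 5 were lower and 2 higher in all 4 pairs. FBLN5, an elastic fibre protein, was at 6.54, 6.37, 6.77 and 6.34 in Omega cows, against 6.93, 6.87, 6.96 and 6.64 in Control cows. Its groups overlapped, and it differed by -0.34 (-0.56 to -0.13), with unadjusted p = 0.00689. FBLN1 of the same family differed by -0.35, TNXB, a tenascin, by -0.41 and PLAT, tissue plasminogen activator, by -0.27. The part of connective tissue content in these differences was not tested. Its markers differed mainly in blocks 303 and 305, where ribosome assembly and heat shock genes also had their most negative means.

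Endothelial markers were mixed, with 8 of 14 lower on average and 3 in all 4 pairs. EMCN, endomucin, was at 7.15 to 7.45 in Omega and 7.45 to 7.87 in Control cows, and differed by -0.25. CLDN5, an endothelial claudin, differed by -0.40 and SOX18 by -0.37, and PECAM1, a defining marker, by 0.00. The list mean was 5.72 to 5.82 in Omega and 5.79 to 5.93 in Control cows. Markers of the luminal epithelium had list means of 7.88 to 8.16 in Omega and 7.97 to 8.16 in Control cows. Those of the myoepithelium had pair means of -0.15, -0.52, 0.67 and 0.27, so that the content of these cells or their RNA was uneven between the cows of a pair.

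Inflammatory genes were mostly dim, and few had 1 sign in all pairs. Of 45 cytokines, chemokines and receptors, 30 were higher on average, 2 higher and 1 lower in all 4 pairs, and 22 lay above the 30th percentile of signal. The list's median level of 4.56 fell in decile 3, counted from the dimmest. In that decile only 33.6% of all probe sets were lower on average. After quantile normalization 28 of the 45 were higher and 17 lower on average. CCL3, a chemokine of macrophages, was at 8.24, 8.30, 8.33 and 8.65 in Omega cows, against 7.74, 7.88, 8.05 and 8.38 in Control cows. Its groups overlapped through block 308, and it differed by 0.37 (0.16 to 0.58), with unadjusted p = 0.00393. IL6 was at 3.26 to 3.46 in Omega and 3.06 to 3.16 in Control cows, among the dimmest probe sets, which leaned to higher values in Omega cows. Of 26 acute-phase and antimicrobial genes, 19 were higher on average but 1 in all 4 pairs. Their median level of 4.17 also fell in decile 3, and 11 lay above the 30th percentile of signal. After quantile normalization 17 were higher and 9 lower on average. SAA3, a serum amyloid A gene, was at 7.10, 9.14, 7.43 and 7.23 in Omega cows, against 8.15, 8.65, 6.70 and 6.92 in Control cows. Neutrophil markers had list means of 4.26 to 4.56 in Omega and 4.24 to 4.50 in Control cows. The Omega cow was higher in each pair, by 0.19, 0.22, 0.02 and 0.05, and 8 of the 9 markers were higher on average, of which 0 were higher in all 4 pairs. Of the 9, 3 lay above the 30th percentile of signal, and the median level of 4.25 fell in decile 3. After quantile normalization 6 were higher and 3 lower on average. The part of neutrophil content in the immune differences was not tested. Macrophage markers had list means of 5.95 to 6.18 in Omega and 5.73 to 6.20 in Control cows.

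The other 3 blocks, 302, 304 and 306, hold cows of lower parity, and 2 of their Control arrays stand apart, so they differ from these 4 in more than parity. A limma fit of all 14 cows tested whether the diet difference was unlike between the 4 blocks and the other 3. No probe set passed, with 0 of 10740 (0%) at an adjusted p under 0.05 and a smallest adjusted p of 0.815. An unadjusted p below 0.05 was reached by 628 (5.85%). Half-widths of its 95% interval had a median of 0.48 log2. Without block 306 in the same fit, 702 probe sets passed, and without block 304 none did.

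Of the 868 probe sets higher in all 4 pairs, 634 (73%) were also higher on average in the other 3 blocks, against 52.2% of all probe sets. In block 306 alone, which holds neither of the Control arrays that stand apart, 376 (43.3%) were higher, against 48.3% of all probe sets. Of the 921 lower in all 4 pairs, 667 (72.4%) were also lower on average in the other 3 blocks, against 47.8% of all, and 443 (48.1%) in block 306, against 51.6% of all. The direction seen in the older cows was therefore shared more often than by all probe sets in the mean of the 3 blocks and not in block 306. These are counts over correlated genes, and no test was made of them. Block 306 is not a neutral reference either. In the fit of the 4 blocks against the other 3, leaving out block 306 gave 702 passing probe sets. Leaving out any other block gave 0. Array weights, whose estimate did not converge, were lowest in block 306, at 0.223.

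Single genes differed between the classes at small unadjusted p. FBP2 had pair differences of -0.53, -1.68, -1.84 and -1.82 in the 4 blocks and of 0.95, -0.15 and 1.99 in blocks 302, 304 and 306. The difference between the classes was -2.40 (-3.55 to -1.24), with unadjusted p = 0.00125 and adjusted p = 0.845. NT5E, an ecto-enzyme that makes adenosine, was lower in Omega cows by 0.27 to 0.63 in the 4 pairs and higher by 0.64 to 1.36 in the other 3. That difference was -1.40 (-1.86 to -0.94), with unadjusted p = 9.02e-05 and adjusted p = 0.815. ELOVL6 was higher by 0.30 to 0.82 in the 4 pairs, and its pair differences were -0.38, -0.80 and -0.36 in the others. BASP1, a membrane protein, was higher by 0.16 to 0.64 in the 4 pairs and had -1.32, -1.42 and -0.34 in the others. IER3, an immediate early gene, and PDXK, pyridoxal kinase, differed between the classes by 0.94 and -1.0, but in the 4 blocks themselves the diet difference was 0.17 for IER3 and had an interval of -0.33 to 0.32 for PDXK. In cholesterol synthesis the list median was -0.01 in the 4 blocks, 0.51 in the other 3 and 0.06 in block 306. In ribosomal proteins the medians were -0.15, -0.30 and 0.18, and in ribosome assembly -0.24, -0.13 and -0.19.

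With parity as a covariate beside the block, 504 probe sets had an unadjusted p under 0.05 and 1 unnamed probe set passed, with a difference of -2.31 and adjusted p = 0.0226 in limma. With the expected calving day as a covariate there were 749, and 0 passed.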

How the data were processed

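Mammary tissue RNA was hybridised to 1-colour Affymetrix arrays. The deposited table holds log2 intensities. The submitters' processing notes name both RMA and GCRMA, with no version, and do not say which produced this table. No detection calls or probe-level intensities were used, and the number of arrays limits the precision.

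Of 10852 rows, 112 were array controls. The 10740 others were matched by unversioned RefSeq accession to the RefSeq gene table of ARS-UCD2.0, which gave 1 symbol to 6749 (6697 symbols) and left 3991 unnamed. There were 10342 distinct sets of values. A gene with several probe sets was represented by the brightest. Some genes that these rules select are not reported here.

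Groups came from the agent, block and parity labels. Fits used limma 3.58.1 in R 4.3.3 (lmFit, eBayes) over all 10740 probe sets, with the block as a fixed effect, Benjamini-Hochberg adjustment at 0.05. Cows were paired by their block label, as the design states. Within pairs, deviations from the mean of each diet correlated at r = -0.003, 0.13, -0.03 and 0.22 across probe sets.

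The cows, the 55 gene lists (1750 genes, 1148 measured) and the naming rules were chosen with earlier results of these data known, and list counts are descriptions. Named were the 15 largest differences each way (1 sign in all 4 pairs, unadjusted p under 0.05, mean above the 30th percentile), up to 4 members of each described list by smallest p, 20 genes given in every case, and the 3 smallest p each way for the difference between classes of block. Other list members given as examples were chosen after their values were seen. In simulated data with 50 changed probe sets per size, the diet fit recovered 40%, 84%, 94% and 100% at log2 changes of 0.5, 1, 1.5 and 2, and the fit between classes 2%, 40%, 64% and 94%. There were 8 false calls in the diet fit and 5 in the fit between classes. All sizes were seeded together in noise that was independent between probe sets, so these shares need not hold for the arrays. In the arrays 0 probe sets passed, although 13 had mean differences over 1 log2. Alternatives covered filters, normalization, variance model, array weights, block, covariates and each block left out.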

Additional observations from a re-analysis of the deposited data

Results flagged for a closer look

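Values of 1 cow far from the other 3 of her diet were found in 13 of 294 groups of 4 checked, and chance gives about 1 in 20. In Omega cows these were CDH16 (5.74 in block 305, others 6.33 to 6.44), DEPP1 (6.70 in block 305, others 5.32 to 5.42), RHPN2 (9.60 in block 307, others 8.70 to 8.75), ALAD (7.21 in block 305, others 7.60 to 7.64), EIF3J (8.55 in block 303, others 8.41 to 8.43), PPARG (5.75 in block 305, others 5.99 to 6.03), IL6 (3.46 in block 308, others 3.26 to 3.27) and SAA3 (9.14 in block 305, others 7.10 to 7.43). In Control cows they were PTX3 (6.88 in block 303, others 4.69 to 4.81), SLC6A6 (3.48 in block 307, others 3.65 to 3.66), CATHL1 (2.67 in block 305, others 2.96 to 3.01), EMCN (7.87 in block 305, others 7.45 to 7.51) and CSN1S1 (13.61 in block 308, others 13.87 to 13.91).

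In 7 named genes all 4 pairs of the older cows had 1 sign and all pairs of blocks 302, 304 and 306 the opposite one. The share of all probe sets with this pattern was not counted. ELOVL6, BASP1 and NT5E were also named by the smallest p for the difference between the classes of block, which selects for it. The diet difference in the 4 blocks minus that in the other 3 was -0.30 for EIF3J, -0.70 for MRPL17, 1.02 for ELOVL6, -0.81 for PPARA, 0.84 for SLC1A1, 1.37 for BASP1 and -1.40 for NT5E. In the limma fit of all 14 cows none of these differences passed, with unadjusted p between 9.02e-05 for NT5E and 0.0691 for EIF3J and adjusted p between 0.815 and 0.853.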

How the results depend on the processing

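The count of 770 probe sets at an unadjusted p under 0.05 was 368 above the 60th percentile of signal, 316 with all 14 cows sharing the spread, 504 with parity as a covariate and 522 to 859 with a block left out. Without the replicate block it was 632, and 0 passed the adjusted threshold. The count past that threshold was 1 with parity as a covariate and 0 to 1 with a block left out (FBP2 without block 303). The 1789 probe sets with 1 sign in all pairs became 455 when each pair had to differ by at least 0.1 log2, and 2863 to 3332 when 3 pairs were left, by construction. For the difference between the classes of block, the 628 at an unadjusted p became 227 above the 60th percentile, 1150 without blocks 302 and 304, 3383 with array weights and 303 to 2657 with a block left out (303 without block 304, 2657 without block 306). The 0 past the threshold became 3 without blocks 302 and 304, 1504 with array weights and 0 to 702 with a block left out (702 without block 306). The estimate of these weights did not converge, and it gave block 304 a weight of 4.21 and block 306 one of 0.223. Of 55 lists, 11 had pair means of 1 sign in all pairs, and 13 to 25 with a block left out, by construction.

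Differences close to 0 or carried by 1 block changed sign in 17 named genes. Quantile normalization gave 0.14 for LPL, 0.017 for SLC2A1, 0.040 for CD36 and 0.075 for PDXK, array weights gave 0.0036 for LPL, -0.014 for PECAM1 and 0.023 for PDXK, and median centring gave -0.0063 for FABP3 and -0.0047 for PECAM1. With a block left out, the differences ran from -0.19 to 0.80 for CIDEA, -0.029 to 0.027 for LPL, -0.041 to 0.058 for FABP3, -0.12 to 0.059 for SREBF1, -0.27 to 0.023 for INSIG1, -0.11 to 0.0021 for CSN1S1, -1.23 to 0.099 for LTF, -0.084 to 0.51 for SAA3, -0.073 to 0.013 for BTN1A1, -0.29 to 0.074 for PDK4, -1.60 to 0.56 for HSPA1A, -0.075 to 0.069 for PECAM1, -0.053 to 0.22 for PLIN1, -0.026 to 0.079 for PLIN2 and -0.13 to 0.14 for PDXK. The cause was not tested. Across these settings and the fit without the replicate block, no other of the 161 genes examined, which include those named with a diet difference, changed sign. With 4 pairs the 95% interval reached 0.25 log2 to either side in the median probe set, with wide variation between genes, and dim probe sets have compressed differences.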

Other observations

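Some gene groups not described above also had pair means of 1 sign in all 4 pairs, at small sizes. The 9 measured circadian clock genes had a median of 0.09 log2, with 6 higher and 3 lower on average and 2 higher in all 4 pairs. The 17 genes of phospholipid and sphingolipid synthesis had a median of -0.05, with 10 lower on average and 2 lower in all 4 pairs. After quantile normalization their pair means were 0.015, 0.018, -0.032 and -0.025 and no longer shared 1 sign. Pair means were also all negative for 24 genes of Toll-like receptors and NF-kappaB, with a median of -0.01, 2 lower and 1 higher in all 4 pairs. After quantile normalization their mean in block 303 was 0.001. In the deposited values, 17 genes of retinoid and vitamin binding also had all pair means negative. Their median was -0.01, with 1 lower and 1 higher in all 4 pairs. Over all probe sets 8.08% were higher and 8.58% lower in all 4 pairs.

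The 21 measured genes of the amino acid response and one-carbon enzymes were uneven between pairs, with means of -0.03, 0.23, -0.62 and -0.03 in blocks 303, 305, 307 and 308. Of these, 17 were lower on average in Omega cows and 1 in all 4 pairs. Glycolysis genes were close to level, with 13 of 22 higher on average, a range of -0.20 to 0.15 log2 and pair means within 0.05 of 0.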
